A study of Mus musculus with 21 samples.

Results

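Coagulation and fibrinolysis genes were followed in whole livers of mice that lost Gata4 in liver sinusoidal endothelium. Of 37 genes listed by symbol, 36 had a named row in a table of 25428 genes, and expression of Cpb2 was not analysed here. The data were log2 RMA signals from Affymetrix expression arrays, with 1 array per liver and 21 livers in all. In the 10 Gata4-LSEC-KO livers, called knockout livers here, a floxed Gata4 allele (Gata4tm1.1Sad) was deleted by the Clec4g-icre transgene of a C57BL/6N line. This iCre recombinase is driven by sequence of Clec4g, a lectin gene of sinusoidal endothelium, and recombination in single cell types was not measured here. The 11 control livers came from siblings given as wild type, and whether these carried the driver or a floxed allele was not stated in the sources used here. All mice were on the diet labelled std, and neither sex nor age was stated. The numbers in the sample descriptions form 2 runs of consecutive values, with 4 knockout and 5 control livers in run 1 and 6 knockout and 6 control livers in run 2. Run was therefore a term in the fit. The lowest median correlation of an array with its own group was 0.98, and the number of arrays limits the precision.

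Blood clots when tissue factor or the contact system starts a cascade of plasma proteases that ends in thrombin, which cuts fibrinogen into fibrin. Plasmin later dissolves the fibrin, and antithrombin, protein C and tissue factor pathway inhibitor hold the cascade in check. Hepatocytes make most of the soluble factors, whereas factor VIII comes mainly from endothelial cells, in the liver from the sinusoidal ones. Von Willebrand factor, which carries factor VIII in plasma, belongs to endothelium of larger and continuous vessels and to megakaryocytes. The genes were grouped by main source from textbook knowledge into 6 endothelial genes, 21 measured hepatocyte genes, 2 myeloid genes and 7 with several or other sources.

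In knockout livers F8, the gene of factor VIII, fell to 58.5% of its control level, while none of the other 5 endothelial genes passed the test (1 had an unadjusted p under 0.05). F2r, the thrombin receptor PAR1, rose 1.85-fold, and Serpinf2, which encodes the plasmin inhibitor alpha2-antiplasmin, rose 1.24-fold. The threshold was an adjusted p of 0.05 in limma, with Benjamini-Hochberg adjustment over all genes. By this rule 2 of 36 members rose and 1 fell, or 8.33% of the members, against 7.33% of all genes (3.28% higher and 4.05% lower). The share of members that passed was thus close to the share of all genes. The all-gene counts moved with single livers, from 565 to 981 higher and from 629 to 1471 lower, against 834 and 1030 with every liver. Without control replicate 8 there were 629 genes lower and without control replicate 9 there were 661. The median log2 difference, knockout minus control, was 0.065 over the 36 members and -0.013 over all genes. In none of the 36 members were the groups free of overlap, a pattern seen in 0.13% of all genes, or 0.0393% with all knockout livers lower.

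The bases before the transcription start of the 3 genes that passed are shown because the deleted factor is a DNA-binding protein of the GATA family. Each is the 250 bases upstream of the start in RefSeq for build GRCm38.p6, in gene orientation, 5′ to 3′. The F8 window lies on the minus strand of the X chromosome (chrX:75380042-75380291), that of F2r on the minus strand of chromosome 13 (chr13:95618467-95618716) and that of Serpinf2 on the minus strand of chromosome 11 (chr11:75439502-75439751). Capitals mark the GATA word AGATAA, the same word ending in G, or either of these starting with T, on either strand.
F8: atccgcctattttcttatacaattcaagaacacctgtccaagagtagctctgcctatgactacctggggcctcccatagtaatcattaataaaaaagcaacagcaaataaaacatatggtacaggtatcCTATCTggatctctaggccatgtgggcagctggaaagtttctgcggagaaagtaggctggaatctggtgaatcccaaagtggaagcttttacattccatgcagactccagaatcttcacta
F2r: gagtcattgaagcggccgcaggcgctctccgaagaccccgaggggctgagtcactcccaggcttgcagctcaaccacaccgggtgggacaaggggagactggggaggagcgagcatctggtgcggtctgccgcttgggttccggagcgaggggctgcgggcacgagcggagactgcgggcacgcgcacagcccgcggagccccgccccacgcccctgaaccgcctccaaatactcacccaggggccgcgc
Serpinf2: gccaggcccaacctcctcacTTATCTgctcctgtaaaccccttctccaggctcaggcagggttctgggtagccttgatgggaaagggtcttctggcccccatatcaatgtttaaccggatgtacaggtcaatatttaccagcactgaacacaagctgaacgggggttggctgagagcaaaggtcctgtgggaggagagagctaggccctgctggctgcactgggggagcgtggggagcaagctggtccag
The F8 window held 1 such word, AGATAG on the opposite strand, 121 to 116 bases before the start, and the Serpinf2 window held AGATAA on the opposite strand, 230 to 225 bases before it. No word was found in these letters of F2r, a window with 24 CG dinucleotides against 2 in F8 and 3 in Serpinf2. Such a word occurred in 26.5% of 32851 windows of this length, and in 10 of the 34 windows of 30 listed genes. Windows were taken by symbol from the 37 listed genes, so the counts for all members and for hepatocyte genes include Cpb2. It was in 3 of 4 windows of endothelial genes and 4 of 19 of hepatocyte genes. Vwf, Thbd and Plat had no window. The 4 endothelial windows thus came only from F8, Procr and Tfpi, with more than 1 window for a gene, and do not describe the whole endothelial group. The hepatocyte HNF1 word GTTAAT was in 4 of 19 windows of hepatocyte genes, against 6.43% of all windows. The STAT word, TTC and GAA around any 3 bases, was in 3 of the 19, against 7.02%. Neither was found in the windows of F8, F2r or Serpinf2.

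F8 is the cofactor with which factor IX activates factor X, and its loss causes haemophilia A. F8 had log2 signals from 5.89 to 7.02 in knockout livers, with a median of 6.64, against 7.02 to 7.60 in control livers, with a median of 7.36. Of the 10 knockout livers, 9 lay below the lowest control, and knockout replicate 3 lay just above it. F8 averaged 6.54 ± 0.37 (SD, n = 10) in knockout livers and 7.30 ± 0.22 (SD, n = 11) in control livers. The log2 difference was -0.77 ± 0.13 (SE; limma, adjusted p = 0.0015), with a 95% interval of -1.03 to -0.51. The runs gave -0.78 for run 1 and -0.76 for run 2. Each of the 10 knockout livers had less F8 than the average control of the same run. In whole liver, fewer cells of a type and less RNA per cell cannot be told apart. Set against the mean of 20 pan-endothelial markers on the same array, F8 had a log2 difference of -0.83 (adjusted p = 8.53e-05). That list was itself not constant, since Eng (0.48) and Fli1 (0.58) rose and Ptprb (-0.56) and Nos3 (-0.43) fell.

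Of 20 markers of sinusoidal endothelium, 9 fell and none rose by the same test, with a median log2 difference of -0.37. The other 11 did not pass, and 4 of them had differences above 0, namely Lyve1 (0.58, adjusted p = 0.27), Tfec (0.39, adjusted p = 0.064), Ehd3 (0.34, adjusted p = 0.29) and Ntn4 (0.03, adjusted p = 0.91). Their mean log2 signal per liver ran from 5.82 to 6.44 in knockout livers and from 6.13 to 6.81 in control livers. Clec4g, from which the driver was built, was among those that fell (-0.92 ± 0.23, SE; adjusted p = 0.018, and 0.053 without the run term), whereas Gata4 itself had a log2 difference of -0.19 (adjusted p = 0.26). Within a genotype, livers with more F8 also had higher sinusoidal markers, on values centred by run. Livers were permuted across runs, so the p-values of this and later relations may be somewhat too small. Over 10 knockout livers r was 0.87 and rho 0.79 (permutation p = 0.0020 and 0.0084), and over 11 control livers r was 0.83 and rho 0.77 (permutation p = 0.0014 and 0.00775). Adjusted over the 20 relations computed, both r passed (0.013 and 0.013) and both rho did not (0.056 and 0.056). Without the 2 livers farthest from the median of F8, r was 0.55 in knockout and 0.72 in control livers (adjusted p = 0.32 and 0.19), so neither passed any longer. The part of these cells in the difference of F8 was not tested. The relation of F8 to the pan-endothelial list was not computed, so none is read as particular to sinusoidal markers. F8 with Vwf had r of 0.04 in knockout and 0.08 in control livers (permutation, adjusted p = 0.92 and 0.87). Without the 2 livers farthest from the F8 median it was 0.76 and 0.20 (permutation, adjusted p = 0.19 and 0.75).

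**Figure D1:**
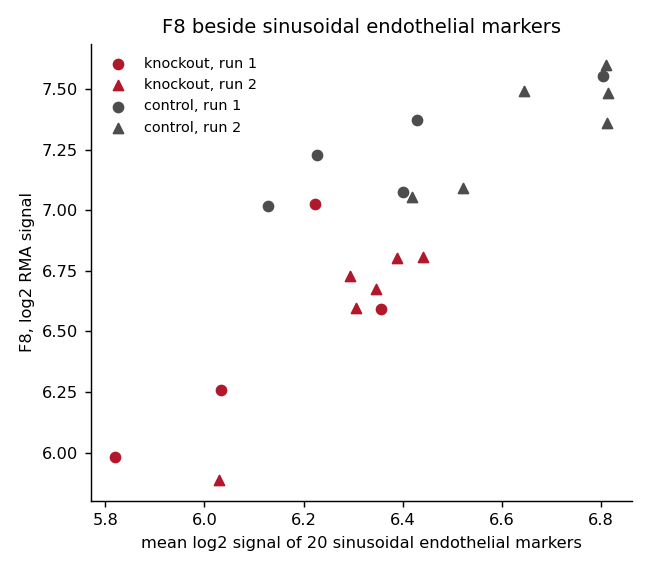
F8 (log2 RMA signal, vertical axis) against the mean log2 signal of 20 sinusoidal endothelial markers (horizontal axis), 1 point per liver, red for knockout and grey for control, circles for run 1 and triangles for run 2. Knockout livers lie at 5.89 to 7.02 for F8 and control livers at 7.02 to 7.60. Within each genotype F8 tends to be higher where the markers are higher. Without the 2 livers farthest from the F8 median, neither correlation passed. The plotted values are not centred by run.

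The other endothelial genes had small differences with intervals on both sides of 0, apart from Procr. Vwf, the platelet tether and carrier of factor VIII, had log2 signals from 4.24 to 5.15 in knockout livers (median 4.61), against 4.47 to 5.62 in control livers (median 4.73). The groups overlapped, and the highest liver of all was control replicate 3. The log2 difference of Vwf was -0.16 ± 0.12 (SE; adjusted p = 0.47), with an interval of -0.42 to 0.09. Thbd encodes thrombomodulin, which turns thrombin into an activator of protein C. It had log2 signals from 4.41 to 5.22 in knockout livers (median 4.66) and from 4.25 to 5.47 in control livers (median 4.77). Its log2 difference was -0.06 ± 0.11 (adjusted p = 0.81), with an interval of -0.28 to 0.17. All knockout livers lay within the control range for Thbd.

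Procr, the endothelial protein C receptor, had a log2 difference of 0.14 ± 0.06 (SE; adjusted p = 0.19) at a control mean of 3.62, below the array median of 3.75, where signals may lie near background. Plat, the tissue plasminogen activator, differed by 0.13 ± 0.13 (adjusted p = 0.62), with -0.17 in run 1 and 0.36 in run 2. Tfpi, the inhibitor of the tissue factor complex, differed by -0.09 ± 0.09 (adjusted p = 0.58). For the 5 endothelial genes that did not pass, the outermost 95% bounds were -0.42 for Vwf and 0.41 for Plat. These are 75.0% and 132.5% of the control signal. These 5 genes had control means from 3.62 to 4.81, against 7.30 for F8. The bounds are on array signal, and whether weak signals understate a change in transcript was not tested.

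**Figure D2:**
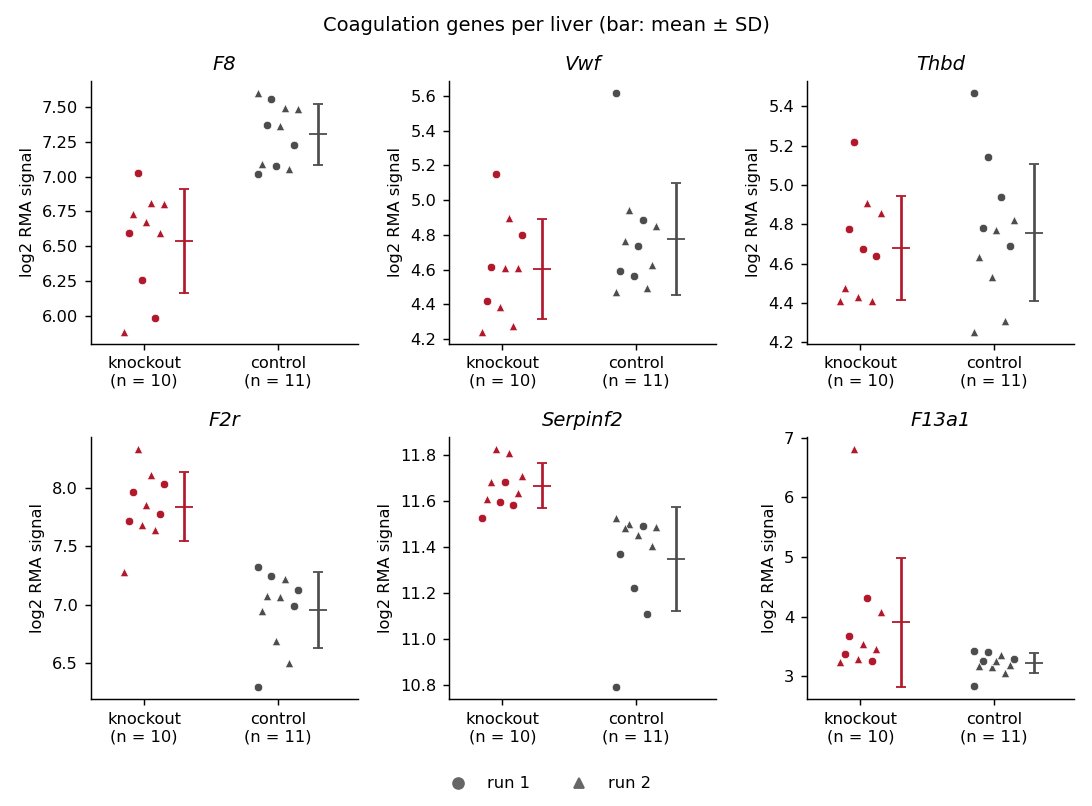
Log2 RMA signal (vertical axes) of 6 genes in each liver, knockout in red (n = 10) and control in grey (n = 11), circles for run 1, triangles for run 2, bars for mean ± SD. F8 is lower and F2r and Serpinf2 are higher in knockout livers, Vwf and Thbd overlap between the genotypes, and F13a1 has 1 knockout liver at 6.82.

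Whether F8 differed from its partners was tested on the log2 difference of 2 genes within each liver, with genotype permuted within run (exact permutation test, two-sided, 116424 arrangements, adjusted over 8 pairs). Against Vwf, F8 averaged 1.93 ± 0.48 (SD, n = 10) in knockout livers and 2.53 ± 0.39 (SD, n = 11) in control livers. The change in this ratio was -0.61 on the log2 scale (exact permutation, adjusted p = 0.0055), and each of the 10 knockout livers was under the average control of the same run. F8 thus fell relative to the gene of its carrier. Each pair with F8 uses the same F8 values as the limma fit, so such pairs give no separate support for that result. Vwf alone had a log2 difference of -0.16 at a control mean of 4.78. Within single runs the F8 to Vwf ratio did not pass (exact permutation, adjusted p = 0.11 in run 1 and 0.075 in run 2). The 9 livers of run 1 allow few arrangements, so not passing there says little. Since the probes of different genes are not on 1 scale, only the change between genotypes is read from such a ratio.

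Against F9, the gene of the protease that factor VIII serves, the ratio changed by -0.78 (exact permutation, adjusted p = 4.12e-04). Against F5, the homologous cofactor made in hepatocytes, it changed by -0.81 (exact permutation, adjusted p = 6.87e-05, from the smallest p the arrangements allow, 8.59e-06). For this last pair knockout livers ran from -5.65 to -4.71 and control livers from -4.68 to -3.88, without overlap. F8 alone had 9 of 10 knockout livers below the lowest control. How often pairs of genes separate in this way was not counted, so it is not read as a trait of the pair. The other pairs did not pass. Thbd over Procr, the pair that presents protein C to thrombin, changed by -0.20 (exact permutation, adjusted p = 0.34). Procr and Plau had control means below the array median of 3.75, so ratios that use them rest on signals that may lie near background. Tfpi over F3, Vwf over its cleaving protease gene Adamts13, Fga over Fgb and Plau over Plaur changed by between -0.05 and 0.05 (exact permutation, adjusted p = 0.92 for each).

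**Figure D3:**
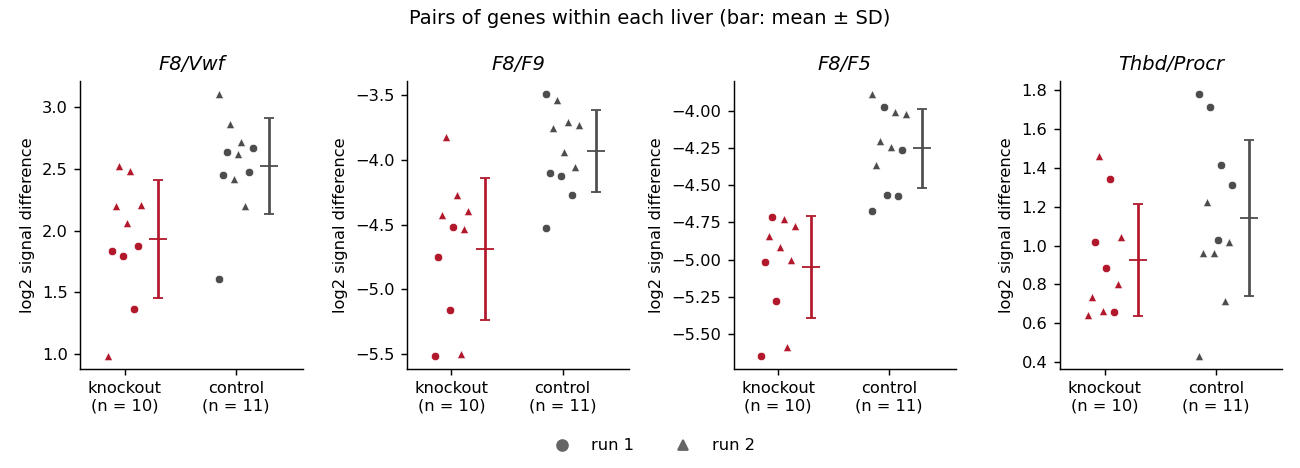
Log2 signal of the first gene minus that of the second (vertical axes) within each liver for 4 pairs, knockout in red (n = 10) and control in grey (n = 11), circles for run 1, triangles for run 2, bars for mean ± SD. The F8 pairs are lower in knockout livers, with changes of -0.61 against Vwf, -0.78 against F9 and -0.81 against F5, and Thbd over Procr overlaps.

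Hepatocyte factors had signals high on the array and small differences. The 21 measured genes had control means from 9.51 for F11 to 13.2 for Fgb, far above the array median. Serpinf2 was the 1 gene of this group that passed, and 18 of 21 differences were above 0, with a median of 0.063. Over all genes 45.1% of differences were above 0. Hepatocyte markers outside haemostasis, 17 measured, had a median of 0.007, with means per liver from 12.02 to 12.24 in knockout livers and from 11.997 to 12.21 in control livers. In both runs 11 of the 21 hepatocyte factors were above 0 and 1 was below 0. The signs thus differed between runs for the other 9.

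Serpinf2 had log2 signals from 11.5 to 11.8 in knockout livers (median 11.7), against 10.8 to 11.5 in control livers (median 11.5). The lowest knockout liver was level with the highest control, and 10 of 11 controls lay below every knockout liver. Serpinf2 averaged 11.67 ± 0.10 (SD, n = 10) in knockout livers and 11.35 ± 0.23 (SD, n = 11) in control livers. The log2 difference was 0.31 ± 0.07 (SE; limma, adjusted p = 0.0080), 0.40 in run 1 and 0.24 in run 2. Acute phase genes, which hepatocytes raise in inflammation, were also higher, with 7 of 14 past the threshold and none lower. Their mean log2 signal per liver ran from 10.4 to 12.2 in knockout livers and from 9.65 to 11.4 in control livers. Within genotypes, in a relation chosen after the values were seen, Serpinf2 and the acute phase mean had r of 0.17 and rho of 0.04 over 10 knockout livers (permutation p = 0.65 and 0.92), and r of 0.23 and rho of 0.37 over 11 control livers (permutation p = 0.42 and 0.26). Without the 2 livers farthest from the median of Serpinf2, r was 0.54 in knockout and 0.28 in control livers (adjusted p = 0.33 and 0.63). The fibrinogen gene Fga and the acute phase mean had r of 0.74 and rho of 0.76 in knockout livers (permutation p = 0.013 and 0.014, adjusted 0.063 and 0.065), and r of -0.18 and rho of -0.24 in control livers (permutation p = 0.62 and 0.48). The part of the acute phase genes in the difference of Serpinf2 was not tested.

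Among the proteases and cofactors of the cascade, thrombin (F2) and factors V, IX, X, XI and XII had log2 differences from 0.01 to 0.09. F7, which binds tissue factor, had a difference of 0.16 ± 0.06 (SE; adjusted p = 0.087), and 10 of 10 knockout livers lay above the control mean of their run. The share of all genes with that pattern was not counted. F7 passed in 2 of the 21 fits that left out 1 liver, without control replicate 1 or 11. The highest adjusted p among these fits was 0.15 (limma). The 3 fibrinogen chain genes differed by 0.06 for Fgg, 0.09 for Fgb and 0.09 for Fga, with adjusted p from 0.16 to 0.53. Their outermost 95% bounds, both of Fga, were 95.2% and 119.8% of the control level. F13b, the carrier subunit of the fibrin crosslinking factor XIII, differed by -0.06. Fgb averaged 13.2 and Fgg 12.9 in control livers, near the highest value in the table, 13.81, and whether their probes could still register an increase was not tested.

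In the contact system, plasma prekallikrein (Klkb1) differed by 0.13 and the kininogens by 0.22 ± 0.08 for Kng2 (SE; adjusted p = 0.091) and -0.06 for Kng1. Kng1 and Kng2 are close paralogs whose transcripts the probes may share, so their separate values are uncertain. Kng2 passed in 3 of the 21 fits that left out 1 liver, without control replicate 3, knockout replicate 2 or knockout replicate 5. The highest adjusted p among these fits was 0.15 (limma). Antithrombin (Serpinc1) differed by 0.07, heparin cofactor II (Serpind1) by 0.09, and protein C (Proc) by 0.05. Plasminogen (Plg) differed by 0.06, and Hrg, a plasminogen-binding glycoprotein, by -0.01. Over the 20 hepatocyte genes that did not pass, the outermost 95% bounds were 86.5% of control for F13b and 130.4% for Kng2, so each interval lay within 0.5 of 0 on the log2 scale.

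**Figure D4:**
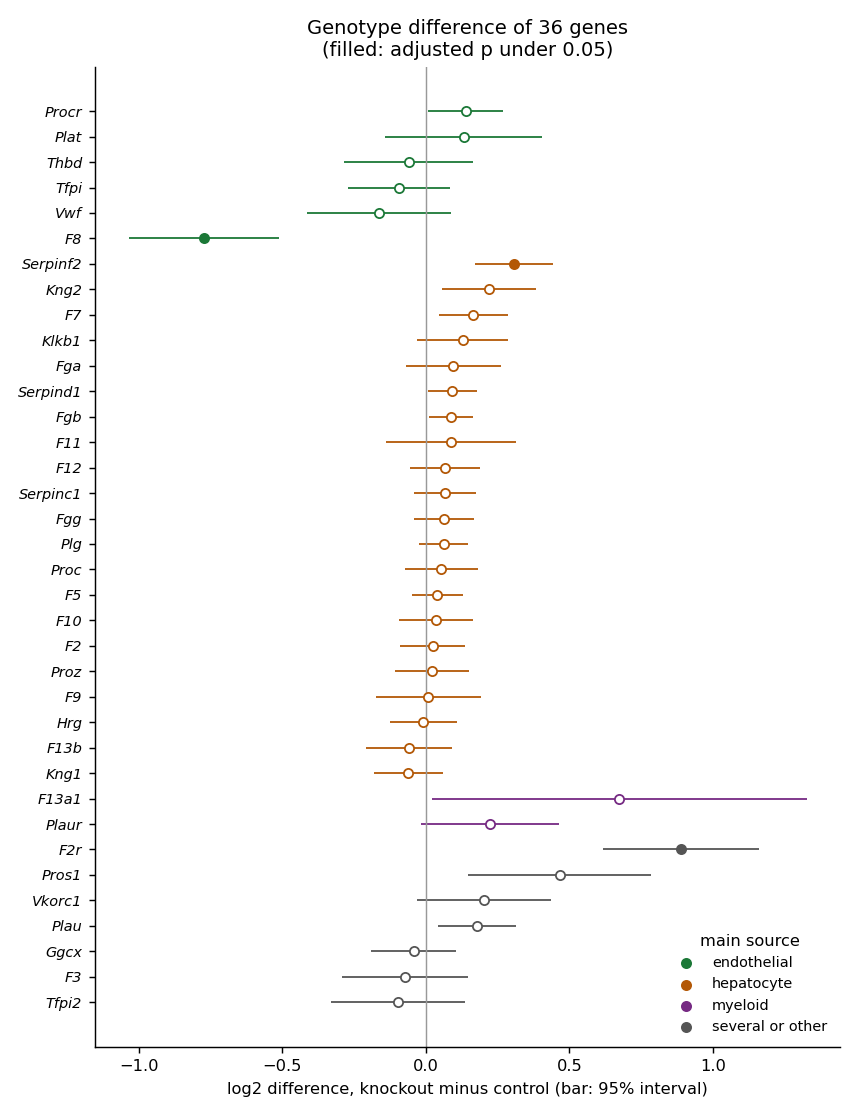
Log2 difference, knockout minus control (horizontal axis), with 95% interval for the 36 genes (rows), coloured by main source, filled where the adjusted p was under 0.05. F8 lies at -0.77, F2r at 0.89 and Serpinf2 at 0.31, and the hepatocyte genes cluster near 0.

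F2r encodes the receptor through which thrombin signals to platelets in humans and to endothelial and mesenchymal cells in mice. F2r had log2 signals from 7.28 to 8.34 in knockout livers (median 7.82), against 6.30 to 7.32 in control livers (median 7.07). Knockout replicate 6 alone lay within the control range, and 10 of 11 controls were below every knockout liver. F2r averaged 7.84 ± 0.29 (SD, n = 10) in knockout livers and 6.96 ± 0.33 (SD, n = 11) in control livers. The log2 difference was 0.89 ± 0.13 (SE; limma, adjusted p = 7.43e-04), with 0.88 in run 1 and 0.90 in run 2. Markers of stellate and mesenchymal cells were also higher, with 7 of 16 past the threshold and none lower, and a median of 0.46. Their mean log2 signal per liver ran from 6.54 to 7.02 in knockout livers and from 5.92 to 6.80 in control livers. Markers of continuous endothelium had 11 of 19 higher and 1 lower, Aqp1 (-0.62), with a median of 0.48. Their mean per liver ran from 4.75 to 5.43 in knockout livers and from 4.23 to 4.71 in control livers. Differences were below 0 for 5 of these 19 and for 2 of the 16 stellate markers. Both lists were chosen with earlier results of these data known.

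Within genotypes, F2r was set against both marker lists, a choice made after its values were seen. With the stellate list r was 0.68 and rho 0.82 over 10 knockout livers (permutation p = 0.029 and 0.00585), and 0.57 and 0.70 over 11 control livers (permutation p = 0.064 and 0.020). After adjustment neither r passed (0.10 and 0.18), nor did either rho (0.056 and 0.065). With the continuous endothelial list r was 0.59 and rho 0.53 in knockout livers (permutation p = 0.075 and 0.12, adjusted 0.19 for r), and 0.84 and 0.70 in control livers (permutation p = 0.0013 and 0.020, adjusted 0.013 for r). Without the 2 livers farthest from the median of F2r, r with the stellate list was 0.76 in knockout and 0.60 in control livers (adjusted p = 0.19 and 0.24). With the continuous endothelial list it was 0.72 in knockout and 0.60 in control livers (adjusted p = 0.19 and 0.24), so the control relation that had passed no longer did. The part of these cells in the difference of F2r was not tested.

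Of the other 6 genes with several or other sources none passed in limma (2 had an unadjusted p under 0.05). Pros1, the cofactor protein S made by hepatocytes and endothelium, had log2 signals from 7.60 to 9.03 in knockout livers (median 8.68), against 7.67 to 8.82 in control livers (median 8.10). It differed by 0.47 ± 0.15 (SE; adjusted p = 0.067), with 0.17 in run 1 and 0.68 in run 2. It passed within run 2 (limma, adjusted p = 0.019) but not within run 1 (adjusted p = 0.86). Leaving out dim genes kept its difference at 0.47, and with fewer genes to adjust over it passed (limma, adjusted p = 0.042). Of the knockout livers, 9 of 10 had more Pros1 than the average control of the same run. Knockout replicate 2 was the lowest liver of all. Without it the difference was 0.59 (adjusted p = 0.0066), and without control replicate 3 it was 0.54 (adjusted p = 0.022). Of the 21 fits that left out 1 liver, Pros1 passed in these 2 alone. The highest adjusted p among them was 0.12 (limma, without knockout replicate 3). The 7 genes of vitamin K-dependent proteins include F2, F7, F9, F10, Proc and Proz. Each difference was above 0, from 0.01 to 0.47, and none passed in limma (2 had an unadjusted p under 0.05). Only 3 of the 7 were above 0 in both runs. F10 and Proz were below 0 in run 1, and F9 and Proc in run 2.

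The enzymes of the vitamin K cycle were Ggcx, the carboxylase, which differed by -0.04, and Vkorc1, the epoxide reductase that warfarin inhibits, which differed by 0.20 ± 0.11 (SE; adjusted p = 0.30). Vkorc1 differed by 0.56 in run 1 and by -0.06 in run 2. That change between runs did not pass (interaction, limma, adjusted p = 0.22). No member passed the test of genotype by run by adjusted p in limma, and 0.0315% of all genes did. Of the members 5 had an unadjusted p under 0.05. The share of all genes under that unadjusted threshold was not counted, so this count is not read as a trait of the members. Tissue factor (F3) differed by -0.07 and the related inhibitor gene Tfpi2 by -0.10. Plau, the urokinase gene, differed by 0.18 ± 0.07 (adjusted p = 0.10) at a control mean of 3.59, below the array median.

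The myeloid genes were uneven among knockout livers. F13a1, the catalytic subunit of factor XIII made by monocytes, macrophages and megakaryocytes, had log2 signals from 3.24 to 6.82 in knockout livers (median 3.49), against 2.84 to 3.42 in control livers (median 3.25). The spread came from knockout replicate 6, and the other knockout livers reached at most 4.31. F13a1 differed by 0.67 ± 0.31 (SE; adjusted p = 0.21), and by 0.36 without that liver (adjusted p = 0.076). Each of the 10 knockout livers lay above the control mean of its run, but the 11 control livers and 7 of the 10 knockout livers were below the array median, where signals may lie near background. The same liver had the highest mean of neutrophil markers (8.57, where the remaining knockout livers spanned 3.27 to 6.14 and control livers 2.99 to 3.24) and of monocyte markers (6.14). Plaur, the urokinase receptor of leukocytes, differed by 0.22 ± 0.12 (adjusted p = 0.26), and its highest value, 5.08, was also in that liver.

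Monocyte markers had 5 of 12 higher and none lower, with means from 4.35 to 6.14 in knockout livers and from 3.88 to 4.93 in control livers. Kupffer cell and macrophage markers had 8 of 15 higher and none lower, with means from 6.89 to 7.91 in knockout livers and from 5.69 to 7.50 in control livers. Platelet and megakaryocyte markers, which bear on Vwf and F13a1, had 2 of 12 higher and none lower, with means from 3.83 to 4.52 in knockout livers and from 3.78 to 4.06 in control livers. The 2 were P2ry12 and Pf4, at 0.37 each, and Pf4 had a control mean of 3.17, below the array median of 3.75. Differences were below 0 for 4 of these 12, the lowest being Clec1b (-0.30; limma, adjusted p = 0.14). They were also below 0 for 1 of the 15 Kupffer cell and macrophage markers. Log2 RMA signals have no 0, so absence of a marker cannot be read from them. The part of these cells in the values of the members was not tested.

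**Figure D5:**
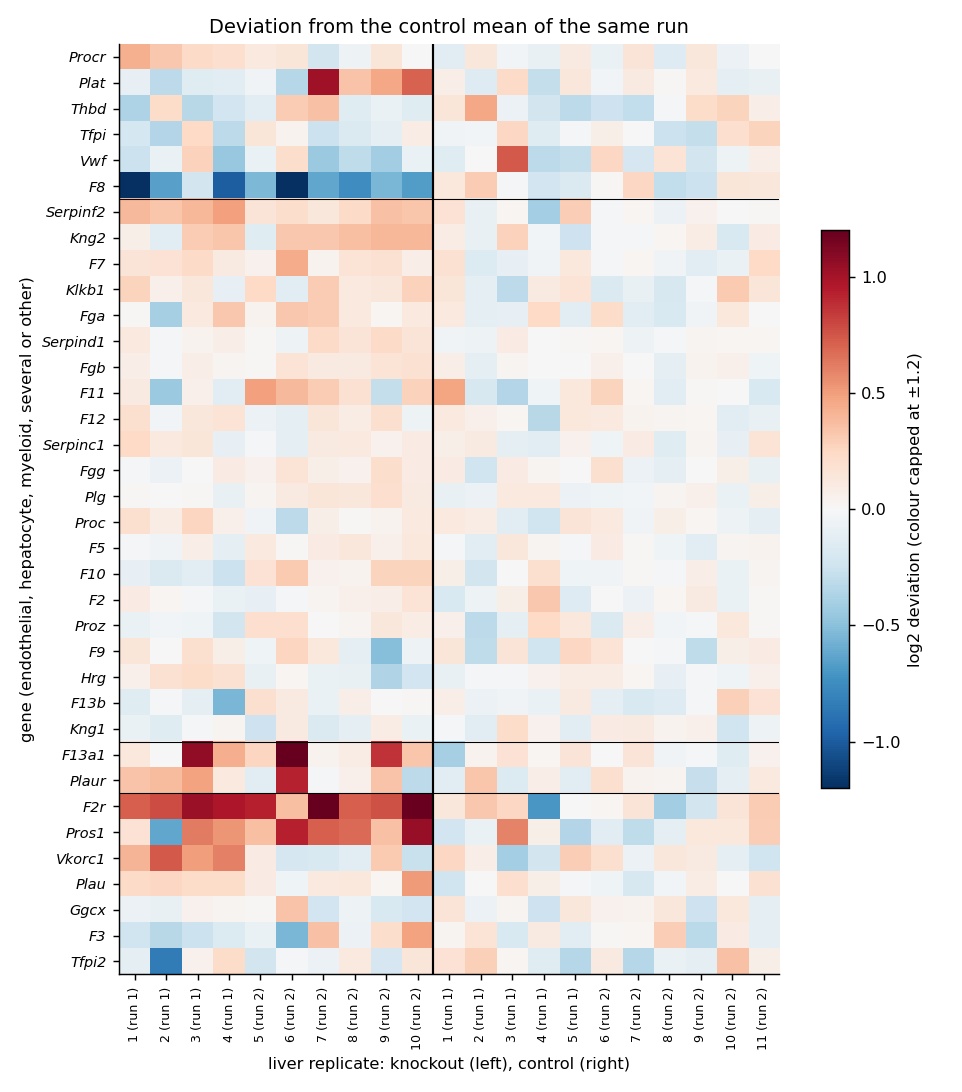
Log2 deviation of each of the 36 genes (rows) in each liver (columns, knockout left of control) from the control mean of the same run, red for higher and blue for lower, with colour capped at 1.2 in either direction. F8 is lower in 10 of 10 knockout livers and F2r higher in 10 of 10, and F13a1 stands out in knockout replicate 6.

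Other genes of haemostasis were taken from a list of 39, of which 36 were measured. By the same test 4 rose and 1 fell, 13.9% of those measured, against 7.33% of all genes. The median difference was 0.070. F11r, the junctional adhesion molecule A of platelets and endothelial and epithelial cells, rose by 0.48 ± 0.11 (SE; adjusted p = 0.012). C4bp, whose protein binds protein S in humans, rose by 0.31 ± 0.08 (adjusted p = 0.024). Serping1, the C1 inhibitor that also blocks kallikrein and factor XII, rose by 0.23 ± 0.07 (adjusted p = 0.034), and Masp2, a complement protease that can cut prothrombin, by 0.22 ± 0.06 (adjusted p = 0.032).

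Lman1, the transport receptor that carries factors V and VIII out of the endoplasmic reticulum, fell by 0.24 ± 0.07 (SE; adjusted p = 0.034). It had log2 signals from 10.48 to 10.97 in knockout livers (median 10.81), against 10.67 to 11.23 in control livers (median 11.06), and lay below the control mean of the run in 10 of 10 knockout livers. Its partner Mcfd2 differed by -0.06. Within run 2 alone F11r (adjusted p = 0.070), Serping1 (0.095), Lman1 (0.27) and Masp2 (0.35) no longer passed, and within run 1 none of the 5 did. Masp2 was also lost without the run term (0.085) and with array weights (0.053), and C4bp without the 2 arrays of lowest correlation (0.062). Dropping 1 liver ended the call of Lman1 for 9 of the 21 livers (highest adjusted p = 0.069), that of Serping1 for 8 (0.068) and that of Masp2 for 6 (0.065). Adamts13, which cuts von Willebrand factor and is made in stellate cells, differed by -0.22 ± 0.10 (adjusted p = 0.22).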

How the data were processed

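RNA of 21 mouse livers was measured on Affymetrix arrays, 1 per liver. The deposited values are log2 signals made by the authors with RMA, per the submitters' processing notes; for the RMA version and the array design, the sources used here give nothing. Of 25428 rows, 24705 had 1 gene symbol in the platform annotation and 723 had none. Arrays had the same sorted values to within 0.00193, so no further normalization was applied and no gene was filtered out.

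Groups came from the sample labels. Every gene was fitted in limma 3.58.1 (R 4.3.3) with genotype and number run as terms, eBayes moderation and Benjamini-Hochberg adjustment over all rows, called at 0.05. Ratios within livers were tested by exact two-sided permutation within runs. Relations across livers were tested by 100000 permutations of run-centred values over all livers of a genotype, not within runs. The fit was tested on simulated data for knockout against control over 25428 genes. Of genes shifted by 0.5 on the log2 scale 90% were recovered, and of those shifted by 1 98%, with 11 false calls. The simulated noise was independent between genes, and the shifted genes were drawn at random from all genes. These shares need not hold for the members or for genes that vary together. Same-numbered livers correlated at -0.09 to 0.18 in their deviations and were not treated as pairs. Nothing states more than that the livers are separate samples, so p-values measure the spread between them. All members were named, with further genes only from lists or by the tests on them; members and lists were chosen with earlier results of these data known. Promoter windows came from RefSeq tables. Alternatives covered the run term, each run, a replicate block, scaling, dim genes, array weights and leaving out livers.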

Additional observations from a re-analysis of the deposited data

Results flagged for a closer look

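In the 10 knockout livers 6 of 44 quantities tested had 1 liver far from the others; chance gives about 1 in 20, and the 11 control livers were not tested. F13a1 was 6.82 in knockout replicate 6, with the next liver at 4.31. F13b was 9.57 in knockout replicate 4, with the next at 9.97. Proc was 10.69 in knockout replicate 6, with the next at 10.97. Pros1 was 7.60 in knockout replicate 2, with the next at 8.33. Tfpi2 was 8.85 in knockout replicate 2, with the next at 9.57. Ggcx was 10.18 in knockout replicate 6, with the next at 9.85. All are log2 signals.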

How the results depend on the processing

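F8, F2r and Serpinf2 kept their direction under every alternative run and lost their calls only within run 1, where 9 livers remain (adjusted p = 0.20, 0.16 and 0.28 in limma). There 2 of 25428 genes were higher and 1 lower, so that 0 members higher and 0 lower says nothing about them. Leaving out 1 liver gave 2 to 4 members higher, with 4 without control replicate 3 or knockout replicate 2, where 981 and 880 of all genes were higher. Same-numbered livers do not pair; with the replicate block F8 differed by -0.80, F2r by 0.92 and Serpinf2 by 0.35, all past the threshold, while C4bp (adjusted p = 0.059), Masp2 (0.12), Lman1 (0.066) and Clec4g (0.076) were not, and 602 of all genes were lower, against 1030 without the block. Small differences changed sign: F9 without the run term (-0.0072); within run 1 F5 (-0.029), F10 (-0.17), F11 (-0.10), Plg (-0.018), Plat (-0.17), Proz (-0.10) and Hrg (0.16); within run 2 F3 (0.058), F9 (-0.058), F13b (0.051), Proc (-0.018), Thbd (0.028) and Vkorc1 (-0.062); with the replicate block Hrg (0.0086). Without control replicate 4 and knockout replicate 6, an alternative chosen after seeing the data, F3 was 0.010 and F9 -0.052. Leaving out 1 liver, F9 ran from -0.026 to 0.062, Hrg from -0.028 to 0.023 and Proz from -0.0048 to 0.051. Within run 1 the ratio of F8 to Vwf was -0.65, to F9 -0.88 and to F5 -0.75 (exact permutation, adjusted p = 0.11, 0.095 and 0.063). F8 over F5 was at the smallest p that the arrangements of these 9 livers allow, so not passing in run 1 says little. In the same run Tfpi over F3 was 0.090, Vwf over Adamts13 -0.049 and Fga over Fgb -0.028. Within run 2 F8 over Vwf was -0.58 (exact permutation, adjusted p = 0.075) and Thbd over Procr 0.0057. Permuted without regard to run, Fga over Fgb was -0.0028. Leaving out 1 liver, Fga over Fgb ran from -0.032 to 0.056, Plau over Plaur from -0.14 to 0.059, Tfpi over F3 from -0.093 to 0.040 and Vwf over Adamts13 from -0.016 to 0.14. Without the 2 farthest livers, r of F8 with sinusoidal markers was 0.55 in knockout and 0.72 in control livers, of F2r with continuous endothelial markers 0.60 in control livers, of F13a1 with Kupffer cell markers 0.29 in knockout livers (-0.17 with all) and of Thbd with continuous endothelial markers -0.21 in control livers (0.10 with all). The causes were not tested.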
